A study of Mus musculus with 7 samples.

Results

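The suppressors of cytokine signalling (SOCS), their relative Cish and the kinase Pim1 were followed as 7 genes, Cish, Socs1, Socs2, Socs3, Socs5, Socs7 and Pim1, chosen by symbol as feedback genes that STAT factors induce. All 7 were among the 16047 genes of the expression table, and all 7 were among the 9594 genes tested. The libraries came from neutrophils sorted as CD11b+ Ly6G+ Ly6Clo CX3CR1-GFP- cells from livers of C57BL/6 mice 24 h after acetaminophen-induced liver injury (AILI), with 50000 cells per liver. The gate used CX3CR1-GFP, while the labels give no reporter allele. The 4 PBS mice (replicates 5 to 8) received PBS. The 3 MC-21 mice (replicates 2 to 4) received 400 µL of medium conditioned with the anti-CCR2 antibody MC-21 at 29 µg/mL, which ablates Ly6Chi monocytes, from 12 h before acetaminophen and every 24 h. Every mouse had AILI, so an uninjured liver is not part of the comparison, and the control injection was buffer and not medium with another antibody.

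When a cytokine binds its receptor, Janus kinases (JAKs) phosphorylate STAT factors, which enter the nucleus and induce target genes. Cish and the SOCS genes are among these targets. Their proteins bind phosphorylated receptors or JAKs through an SH2 domain and, through the SOCS box, recruit elongins and a cullin that mark bound proteins for degradation, which closes a negative feedback loop. Cish and Socs2 are classical targets of STAT5, the factor used by GM-CSF and growth hormone, Socs3 is a classical target of STAT3 that restrains G-CSF and IL-6 signalling, and Socs1 restrains interferon signalling. Pim1, a serine/threonine kinase that favours survival, is induced by STAT3 and STAT5 in myeloid cells.

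STAT dimers bind the letters TTCNNNGAA, where N is any base and both strands read alike, and STAT6 prefers the same ends with 4 bases between them. RefSeq windows from 250 bases before to 50 after the start were matched for 4 of the 7 genes, Cish, Socs1, Socs3 and Pim1, and placed by sequence on mm9, the build of the files. The start is RefSeq's, and for Cish and Socs3 it lies inside the wider gene span of the GENCODE annotation that is given with the values. TTCNNNGAA occurred in 8.3% of 32851 such windows and at least 2 matches occurred in 0.457% of them. Cish held 2 matches, TTCCTGGAA from the first to the ninth base from this start and TTCTTGGAA from base 12 to base 20. Socs3 held 1 match, TTCTTAGAA, from 154 to 146 bases before the start. Socs1 and Pim1, the latter in both of its windows, held none. The wider STAT6 form, found in 6.95% of the windows, matched in none of the 4 genes. The sequences show Cish and Socs3, whose matches are in capitals, and Socs1 as a gene with no match in this window. Cish is shown up to base 20 from its start and the others up to the base before the start, all 5′ to 3′.
Cish, chr9:107198740-107199009, plus strand: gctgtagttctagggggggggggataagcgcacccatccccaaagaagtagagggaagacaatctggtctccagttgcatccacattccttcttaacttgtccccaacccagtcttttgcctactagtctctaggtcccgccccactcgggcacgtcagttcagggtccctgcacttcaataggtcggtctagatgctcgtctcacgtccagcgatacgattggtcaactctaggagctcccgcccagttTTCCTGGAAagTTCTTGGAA
Socs3, chr11:117830681-117830930, minus strand: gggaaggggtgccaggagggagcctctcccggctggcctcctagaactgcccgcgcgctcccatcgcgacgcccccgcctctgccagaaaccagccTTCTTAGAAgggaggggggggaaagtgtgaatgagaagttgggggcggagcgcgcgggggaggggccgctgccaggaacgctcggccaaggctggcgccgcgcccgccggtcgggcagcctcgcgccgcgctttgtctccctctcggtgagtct
Socs1, chr16:10785630-10785879, minus strand: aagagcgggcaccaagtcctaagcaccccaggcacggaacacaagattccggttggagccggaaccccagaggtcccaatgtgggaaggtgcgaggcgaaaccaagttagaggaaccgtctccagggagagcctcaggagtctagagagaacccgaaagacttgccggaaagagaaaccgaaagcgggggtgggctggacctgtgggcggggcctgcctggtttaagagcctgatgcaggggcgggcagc

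Cish, Socs1 and Socs2 had higher levels in MC-21 neutrophils than in most PBS neutrophils. Socs3 and Pim1 were abundant in both groups, and Socs5 and Socs7 had the lowest RPKM in both. With limma on log2(RPKM + 1) and Benjamini-Hochberg adjustment over all 9594 genes, 0 of the 7 genes had an adjusted p under 0.05, a call made for 60 genes (0.625% of those tested, 0.198% as higher and 0.427% as lower). Cish, Socs1 and Socs2, 3 of the 7, had an unadjusted limma p under 0.05 together with a difference of 2-fold or more, in each case higher. Over all genes tested 2.7% met these limits, 1.02% as higher and 1.68% as lower, and 14.7% had an unadjusted p under 0.05 at any size. The median difference of the 7 genes was 0.49. RPKM is the number of reads scaled to transcript length and to the mapped reads of the library. Differences are MC-21 minus PBS in log2(RPKM + 1), which understates the change of low genes. The median difference over all genes tested was -0.15, so the difference with each library centred on its median is given as well for Cish, Socs1 and Socs2. The genes were chosen with earlier results of these data known, and Socs1 and Socs2 had already been described as higher.

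**Figure D1:**
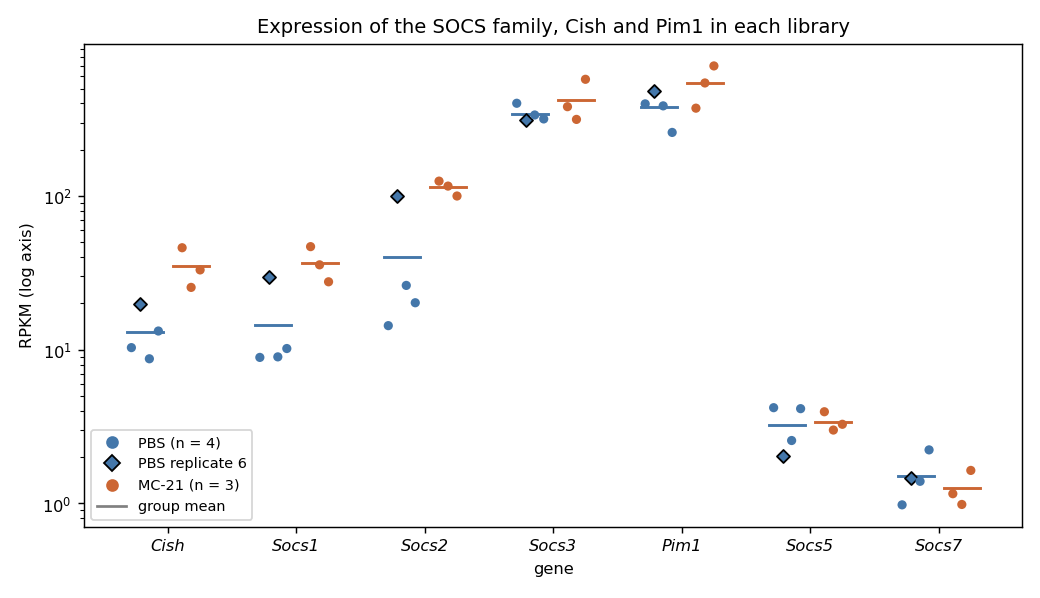
RPKM (log axis) of the 7 genes in each library, with 4 PBS and 3 MC-21 libraries as points, PBS replicate 6 as an outlined diamond and group means as bars. In Cish, Socs1 and Socs2 the diamond is the highest PBS point, at 19.7, 29.8 and 99.6 RPKM.

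Cish encodes CIS, the first known member of the family, which binds STAT5-activating receptors. The gene lies on chromosome 9 from 107198357 to 107205115 (mm9, plus strand). Its level was 10.3, 19.7, 8.73 and 13.2 RPKM in PBS replicates 5, 6, 7 and 8 and 46.1, 25.4 and 33.0 RPKM in MC-21 replicates 2, 3 and 4. All 3 MC-21 values lay above all 4 PBS values, a separation seen in 13.3% of all genes tested, 3.1% with MC-21 above and 10.2% with MC-21 below. The means were 13.002 ± 4.85 RPKM (SD, n = 4) and 34.8 ± 10.4 RPKM (SD, n = 3). The log2 difference was 1.38 (standard error 0.29, 95% interval 0.74 to 2.02, limma adjusted p = 0.0739), and an exact permutation test (two-sided, 35 arrangements) gave p = 0.0571, where the smallest possible p is 0.0286. With each library centred on its median the difference was 1.54 and the limma adjusted p was 0.0428. The predicted genes Gm17040 and Gm17041 overlap Cish on the other strand, and with counting by strand not stated their reads cannot be told apart from those of Cish.

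Socs2, which binds the growth hormone receptor and other receptors that use STAT5, lies on chromosome 10 from 94847996 to 94879814 (minus strand). Its level was 14.3, 99.6, 26.2 and 20.2 RPKM in PBS replicates 5, 6, 7 and 8 and 125, 116 and 99.96 RPKM in MC-21 replicates 2, 3 and 4. The groups did not overlap, but PBS replicate 6 lay just under MC-21 replicate 4, while the other 3 PBS libraries were far lower. The log2 difference was 1.89 (standard error 0.53, 95% interval 0.70 to 3.08, limma adjusted p = 0.168), with a two-sided exact permutation p of 0.0571. With centred libraries it was 2.06 (limma adjusted p = 0.122). Without PBS replicate 6 it was 2.46 (standard error 0.22, limma adjusted p = 0.00610), and without PBS replicate 8 it was 1.72 (limma adjusted p = 0.403).

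Socs1 inhibits JAK kinases directly and is best known for limiting the response to interferons. It lies on chromosome 16 from 10783901 to 10785629 (minus strand). Its level was 8.91, 29.8, 8.99 and 10.2 RPKM in PBS replicates 5, 6, 7 and 8 and 46.8, 35.7 and 27.7 RPKM in MC-21 replicates 2, 3 and 4. The groups overlapped at 1 point, PBS replicate 6 being above MC-21 replicate 4. The log2 difference was 1.44 (standard error 0.39, 95% interval 0.57 to 2.32, limma adjusted p = 0.155), and the two-sided exact permutation p was 0.0857. With centred libraries it was 1.605 (limma adjusted p = 0.0980). Without PBS replicate 6 it was 1.83 (standard error 0.21, limma adjusted p = 0.0128), and without PBS replicate 8 it was 1.35 (limma adjusted p = 0.382).

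These 3 genes had the same highest PBS library. It was singled out by these same values, and leaving out the highest PBS value must raise the difference. The fits without it are therefore no separate support. PBS replicate 6 was the highest of the PBS libraries in Cish, Socs1, Socs2 and Pim1, 4 of the 7 genes, and in 24.4% of all genes tested. Cish also passed without it, with a log2 difference of 1.59 (standard error 0.25, limma adjusted p = 0.0320), so that the count of the 7 genes with an adjusted p under 0.05 was 3 without PBS replicate 6 and 0 when any other single library was left out. The count over all genes was 102 without it, against 60 with all libraries. Across genes, Pearson's r of PBS replicate 6 was 0.953, 0.972 and 0.963 with PBS replicates 5, 7 and 8. With MC-21 replicates 2, 3 and 4 it was 0.973, 0.961 and 0.945.

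**Figure D2:**
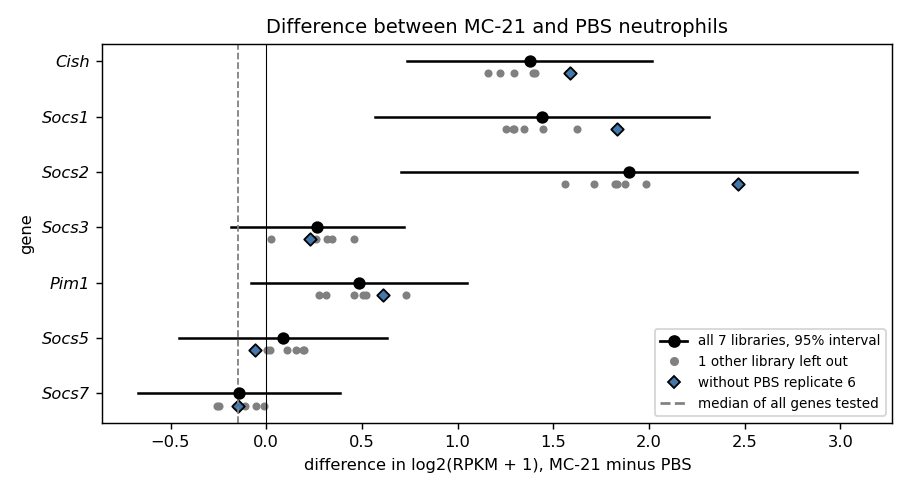
Difference in log2(RPKM + 1), MC-21 minus PBS, for each gene with its 95% interval from limma (black), with each library left out in turn (small points) and without PBS replicate 6 (diamonds), and the median of all genes tested (dashed). The intervals of Cish, Socs1 and Socs2 lie above 0, and those of Socs3, Pim1, Socs5 and Socs7 span it.

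Socs3 and Pim1 were the most abundant of the 7 genes in every library. Socs3, which also inhibits JAKs directly and binds the gp130 and G-CSF receptors, lies on chromosome 11 from 117827393 to 117831361 (minus strand). It had 401, 314, 336 and 317 RPKM in PBS replicates 5, 6, 7 and 8 and 381, 315 and 574 RPKM in MC-21 replicates 2, 3 and 4. MC-21 replicate 4 stood above the other 6 libraries, whose groups overlapped. The log2 difference was 0.27 (95% interval -0.18 to 0.72, limma adjusted p = 0.577), and without MC-21 replicate 4 it was 0.02.

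Pim1 lies on chromosome 17 from 29627757 to 29632390 (plus strand). It had 397, 482, 386 and 259 RPKM in PBS replicates 5, 6, 7 and 8 and 373, 543 and 701 RPKM in MC-21 replicates 2, 3 and 4. MC-21 replicates 3 and 4 were above all PBS libraries, and MC-21 replicate 2 lay within the PBS range. The log2 difference was 0.49 (95% interval -0.08 to 1.05, limma adjusted p = 0.407). It was 0.27 without MC-21 replicate 4, 0.31 without PBS replicate 8 and 0.73 without MC-21 replicate 2. The antisense transcript Gm16912 overlaps this gene, with the same limit on strand as for Cish.

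Socs5 and Socs7, the long members of the family, were near the lower end of what these libraries measure. Socs5, on chromosome 17 from 87507019 to 87536923, ranged from 2.05 to 4.20 RPKM in PBS and from 3.00 to 3.95 RPKM in MC-21 neutrophils, so that the MC-21 values lay inside the PBS range (log2 difference 0.09, 95% interval -0.45 to 0.63, limma adjusted p = 0.890). Socs7, on chromosome 11 from 97223865 to 97259856, ranged from 0.980 to 2.23 RPKM in PBS and from 0.985 to 1.64 RPKM in MC-21 neutrophils, again inside it (log2 difference -0.14, 95% interval -0.67 to 0.39, limma adjusted p = 0.814). The sign of each was not stable, since Socs5 turned to -0.06 without PBS replicate 6 and Socs7 to 0.02 with centred libraries and 0.05 with quantile normalization.

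The reads behind these levels were read from the table, whose low values fall on multiples of what 1 read is worth. A transcript of 1 kb at 1 RPKM held 2.77, 3.33, 2.66 and 3.96 reads in the PBS libraries, in the order given above, and the MC-21 libraries had 3.57, 1.59 and 2.78. For the longest annotated transcripts, of 4392 and 7015 bases, this gives whole numbers of reads in every library within 0.1, from 21 to 72 reads for Socs5 and from 11 to 62 for Socs7. Socs1, with a single transcript of 1220 bases, had about 29 to 204 reads per library. In PBS replicates 5, 6, 7 and 8 Socs5 had 51, 30, 30 and 72 reads, and Socs1 had about 30, 121, 29 and 49. Cish had 23.2 to 165 and Socs2 39.7 to 446 reads per kilobase, while Socs3 and Pim1 had at least 501 and 865. MC-21 replicate 3 is the shallowest library. In PBS neutrophils the order of mean levels was Pim1 (381 ± 91.9 RPKM), Socs3 (342 ± 40.4), Socs2 (40.1 ± 39.97), Socs1 (14.5 ± 10.2), Cish (13.002 ± 4.85), Socs5 (3.24 ± 1.09) and Socs7 (1.51 ± 0.522), each with SD and n = 4. Apart from Socs3 with Socs2 and Cish with Socs5, the ranges of neighbours in this order overlapped. These were 3′ libraries, whose read number does not grow with transcript length, so an order by RPKM favours short transcripts.

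Over the 7 libraries the profile of Socs1 was close to those of Socs2 (Pearson's r = 0.971, Spearman's rho = 0.929) and Cish (r = 0.934, rho = 0.857), and Socs2 and Cish had r = 0.880 and rho = 0.857. Socs2 was number 11 and Cish number 35 when 5859 genes averaging 5 RPKM or more were ranked by r with Socs1. Socs3 had r of 0.130 with Socs1, 0.151 with Socs2 and 0.370 with Cish. All of these values describe 7 libraries that carry the difference between the groups. The genes most like Socs1 were Matk (r = 0.988), Rai2 (r = 0.987) and Tmem243 (r = 0.980), those most like Socs2 were Inpp1 (r = 0.986), Rai2 (r = 0.982) and Nfkbia (r = 0.974), and those most like Cish were Car4 (r = 0.983), Galnt18 (r = 0.977) and Matk (r = 0.969). Car4 had 0.278 to 6.01 RPKM in PBS and 15.9 to 47.8 RPKM in MC-21 libraries, so it passed the limit of 5 RPKM only through the MC-21 group. Matk encodes a kinase that inhibits Src family kinases, and Nfkbia encodes the inhibitor of NF-kappaB. Matk had 5.44, 24.0, 5.82 and 7.16 RPKM in PBS replicates 5, 6, 7 and 8 and 48.4, 27.8 and 31.2 RPKM in MC-21 replicates 2, 3 and 4. Nfkbia had 983, 1684, 1230 and 997 RPKM in the PBS libraries and 1943, 1637 and 1618 RPKM in the MC-21 libraries. Their high value in PBS replicate 6 follows from how they were picked, by likeness to Socs1 and Socs2 over these same libraries. The genes most like Socs3 were Znhit1 (r = 0.986), Prpf38b (r = 0.984) and Tnfsf9 (r = 0.971). Those most like Pim1 were Atp5l (r = 0.965), Gm5148 (r = 0.955) and Sharpin (r = 0.950).

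**Figure D3:**
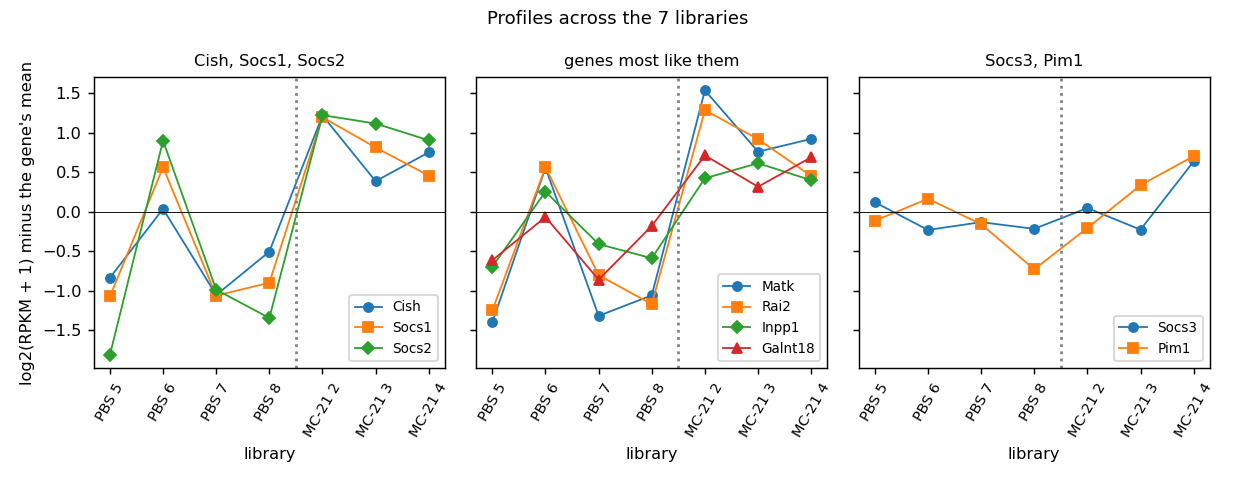
Log2(RPKM + 1) minus the mean of each gene over the 7 libraries (x axis, PBS replicates 5 to 8 and MC-21 replicates 2 to 4), with lines that only join the points of a gene. Cish, Socs1, Socs2 and the genes chosen for their likeness to them have PBS replicate 6 above the other PBS libraries, and Socs3 and Pim1 have their highest point in MC-21 replicate 4.

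The rest of the pathway was listed by role. In these 8 lists 0 genes had a limma adjusted p under 0.05 with all 7 libraries. Among ligands, 6 of 24 listed genes were tested, 5 were not in the table and 13 had a mean under 1 RPKM, Il6, Il10, Csf2, Csf3 and Ifng among them. The most abundant was Osm, encoding oncostatin M, with 442 ± 62.9 RPKM in PBS and 505 ± 111 RPKM in MC-21 neutrophils. Csf1, the macrophage growth factor, had 73.3, 162, 82.7 and 104 RPKM in PBS replicates 5, 6, 7 and 8 and 198, 161 and 168 RPKM in MC-21 replicates 2, 3 and 4, so that here too PBS replicate 6 lay among the MC-21 libraries (log2 difference 0.79, limma adjusted p = 0.211). Il4 was listed at 0 in PBS replicates 5 and 7, had 1.42 and 0.599 RPKM in PBS replicates 6 and 8, and had 2.66, 2.98 and 2.13 RPKM in the MC-21 libraries. It passed the filter of 1 RPKM only through the MC-21 group, so its test is not given. Without PBS replicate 6 the limma adjusted p of Csf1 was 0.0414, and over all alternative settings it reached 0.422.

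Of the receptors that signal through JAKs, 24 of 29 were tested, and their median difference was 0.00. Unadjusted limma p-values were under 0.05 in 3 genes with higher and 2 with lower values in MC-21 neutrophils, against 3.59% and 11.2% of all genes tested. The higher ones, picked out after their values were seen, were Ifngr1 of the interferon gamma receptor (0.68), Il6st encoding gp130 (0.61) and Csf2rb, the shared beta chain of the GM-CSF receptor (0.47), as log2 differences. Their limma adjusted p-values were 0.0760, 0.274 and 0.315. The groups did not overlap in Ifngr1 but overlapped in Il6st and Csf2rb. Csf3r, the G-CSF receptor, had 301 ± 27.6 RPKM in PBS and 298 ± 5.60 RPKM in MC-21 neutrophils, a log2 difference of -0.01. Crlf2, a subunit of the receptor for TSLP, had 266 ± 19.9 and 261 ± 44.2 RPKM. Il2rg, the common gamma chain, had 71.6 ± 9.13 RPKM in PBS and 39.9 ± 13.5 RPKM in MC-21 neutrophils (log2 difference -0.87, limma adjusted p = 0.137). Its groups did not overlap, as in 10.2% of all genes tested with MC-21 below. Il21r, which pairs with Il2rg, had 0.971, 2.42, 3.61 and 1.74 RPKM in the PBS libraries, was listed at 0 in MC-21 replicate 3, and had 0.644 RPKM in MC-21 replicate 2 and 0.690 RPKM in MC-21 replicate 4. This gene passed the filter only through the PBS group, so its test is not given, although it is 1 of the 2 lower genes counted above.

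Among the 4 JAKs, Jak2, which serves the GM-CSF and growth hormone receptors, had 23.0, 39.5, 28.6 and 33.6 RPKM in PBS replicates 5, 6, 7 and 8 and 65.3, 53.1 and 56.9 RPKM in MC-21 replicates 2, 3 and 4. The groups did not overlap, as in 3.1% of all genes tested with MC-21 above (log2 difference 0.91, standard error 0.19, limma adjusted p = 0.0779, two-sided exact permutation p = 0.0286). The limma adjusted p was 0.0410 with centred libraries and 0.0445 without PBS replicate 6, and over all alternative settings it reached 0.220. Jak1, the most abundant, had 97.4 ± 5.99 and 97.1 ± 10.8 RPKM (log2 difference -0.01), and Tyk2 had 5.28 ± 0.443 and 3.56 ± 0.0961 RPKM (log2 difference -0.46, limma adjusted p = 0.264) without overlap. A separation with MC-21 below was seen in 10.2% of all genes tested. The 7 STAT factors had a median difference of -0.12. Stat3 had 47.5 ± 5.21 and 54.4 ± 19.0 RPKM, Stat6 29.9 ± 1.96 and 27.2 ± 2.30, and Stat5a 4.09 ± 0.426 and 3.46 ± 1.01.

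Other inhibitors of the pathway had a median difference of -0.02 over 12 genes. Ptpn6, the phosphatase SHP-1, was the most abundant with 182 ± 14.4 and 161 ± 2.02 RPKM, and Ptpn1 had 89.3 ± 20.5 and 96.2 ± 15.0 RPKM. Pias4, which encodes an inhibitor of STAT binding, had 10.8 ± 2.28 and 5.89 ± 1.54 RPKM (log2 difference -0.78, limma adjusted p = 0.166). Cbl, a ubiquitin ligase, had 1.28 ± 0.180 and 2.77 ± 0.156 RPKM (log2 difference 0.72, limma adjusted p = 0.138). The 6 partners of the SOCS box had a median difference of -0.05, with Tceb2, encoding elongin B, at 742 ± 77.2 and 699 ± 81.9 RPKM. The log2 differences of its other named partners were 0.21 for Tceb1 (elongin C), 0.15 for Rbx1 and -0.20 for Cul2. Pim3 had 39.4 ± 5.83 and 53.7 ± 13.2 RPKM, and Pim2 2.11 ± 0.607 and 1.20 ± 0.574 RPKM. Socs4 and Socs6 had a mean under 1 RPKM and were not tested.

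Among 20 other genes that STAT factors induce, the median difference was -0.0007, and the MC-21 values lay above all PBS values in 3 of them (3.1% of all genes tested), Il1rn, Nfil3 and Cebpd (the last named after its values were seen, log2 difference 0.40). Il1rn, encoding the interleukin-1 receptor antagonist, had 54.4, 146, 86.1 and 105 RPKM in PBS replicates 5, 6, 7 and 8 and 236, 178 and 188 RPKM in MC-21 replicates 2, 3 and 4, again with PBS replicate 6 as the highest of its group (log2 difference 1.10, limma adjusted p = 0.144, and 0.0496 without that library). Over all alternative settings the limma adjusted p of Il1rn reached 0.305. Nfil3, a transcription factor, had 28.9 ± 6.01 and 51.9 ± 10.5 RPKM (log2 difference 0.83, limma adjusted p = 0.130). Cebpb had 1520 ± 95.1 and 1471 ± 215 RPKM and Junb 905 ± 117 and 831 ± 83.8 RPKM. For all means of this and the previous paragraphs the SD is over 4 PBS and 3 MC-21 libraries.

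**Figure D4:**
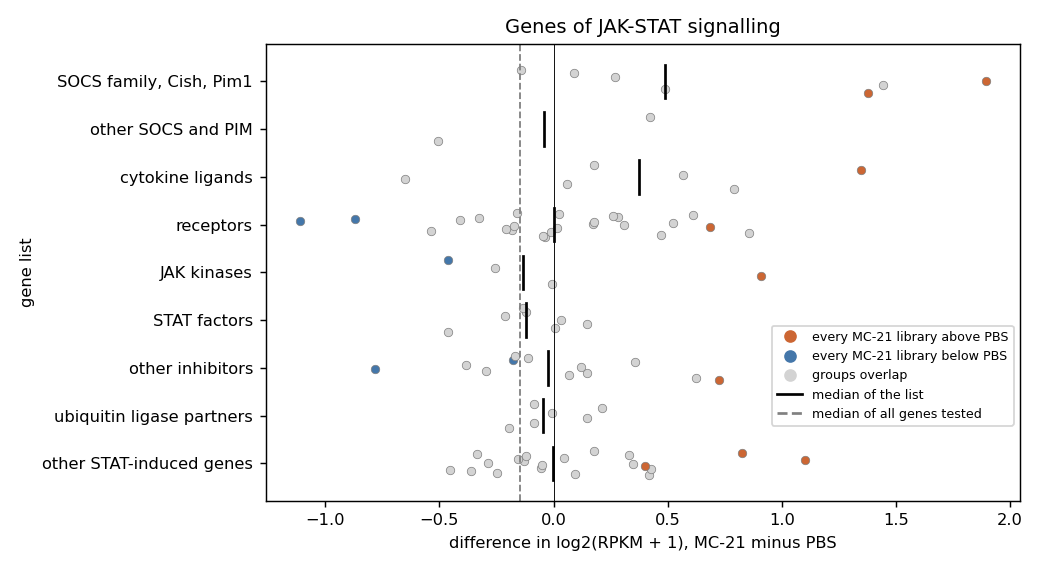
Difference in log2(RPKM + 1), MC-21 minus PBS, of every tested gene in 9 lists of JAK-STAT signalling, coloured where the groups do not overlap, with the median of each list (black bar) and of all genes tested (dashed line). The list of SOCS family, Cish and Pim1 has a median of 0.49, while JAK kinases have -0.13 and STAT factors -0.12.

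The cells were checked against markers. S100a9, one of the listed neutrophil markers, had between 12275 and 25041 RPKM, and Ly6g, the marker of the sort, between 16.3 and 69.0 RPKM. The 13 neutrophil markers summed to 31721, 18627, 27250 and 20803 RPKM in PBS replicates 5, 6, 7 and 8 and to 28545, 36360 and 42165 RPKM in MC-21 replicates 2, 3 and 4, lowest in PBS replicate 6, and 0 of them had a limma adjusted p under 0.05. S100a9 was the largest part of each sum. S100a9, Retnlg, Lcn2, Csf3r and Ly6g were lowest in PBS replicate 6, while Cxcr2, Camp and Ngp were highest there among the PBS libraries. At an unadjusted limma p under 0.05, 3 of the 13 (S100a8, S100a9 and Retnlg) were higher and 1 (Camp) was lower in MC-21 neutrophils, against 3.59% and 11.2% of all genes tested. Liver endothelial genes were present too, Igfbp7 with 2643 to 3813 RPKM and Clec4g with 474 to 1539 RPKM, and 0 of the 7 endothelial genes had an unadjusted limma p under 0.05. Of 13 monocyte and macrophage markers, 6 were lower in MC-21 neutrophils with a limma adjusted p under 0.05, a call made for 0.427% of all genes tested, and 0 were higher. Ccr2 and F13a1, both among the 6, passed the filter only through the PBS group, and the other 4 were C1qa, C1qb, C1qc and Fcgr1. Their summed level was 583, 666, 702 and 671 RPKM in PBS replicates 5 to 8 and 361, 342 and 303 RPKM in MC-21 replicates 2 to 4, with Cd68 the most abundant on average over the 7 libraries (C1qb was above it in the PBS mean) and Ccr2 listed at 0 in MC-21 replicate 3. PBS replicate 6, which had the high levels of Socs1 and Socs2, lay within the other PBS libraries in this sum. By single markers it was the highest PBS library for Ccr2, Cd68, Ms4a7 and Adgre1. It was the lowest for Ly6c2 and C1qa, and lay between the others for the rest. The 5 Kupffer cell markers summed to 65.7, 67.5, 56.3 and 84.4 RPKM in PBS and 42.8, 64.4 and 34.3 RPKM in MC-21 neutrophils, with Marco the most abundant. Of the 3 Kupffer cell markers tested, 2 (Marco and Cd5l) were lower at an unadjusted limma p under 0.05 (11.2% of all genes tested) and 0 at an adjusted p under 0.05. The 6 hepatocyte genes were highest in PBS replicate 6, with a sum of 445 RPKM against 167 to 294 RPKM in the other 6 libraries, and 0 of them had an unadjusted limma p under 0.05. B cell markers were also highest there, with 29.9 RPKM against 6.14 to 14.1 RPKM elsewhere. The part of these cells in the levels of Cish, Socs1 and Socs2 was not tested, and fewer cells of a type cannot be told apart from less RNA per cell. The remaining markers summed to at most 12.9 RPKM for T and NK cells, 19.5 for the single eosinophil gene in the table, 251 for platelets and 10.7 for dendritic cells, and with the B cell markers 0 of their 13 tested genes had a limma adjusted p under 0.05. At an unadjusted limma p under 0.05, 1 of 3 T and NK cell genes (Cd3d) and 1 of 4 platelet genes (Pf4) were lower in MC-21 neutrophils.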

How the data were processed

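The authors sequenced 3′ RNA-seq libraries on an Illumina NextSeq, mapped reads to mm9 with HISAT 0.1.5, used bcl2fastq, SAMtools and Partek 6.6 per the submitters' processing notes, and deposited RPKM values per gene. The annotation and the handling of strand, shared reads and barcodes are not given in the sources used here. Every column was matched to 1 mouse by its label. Genes averaging 1 RPKM or more were tested with limma 3.58.1 (eBayes with a trend, R 4.3.3) on log2(RPKM + 1), with no further scaling. Exact permutation tests used the absolute difference of means on this scale. Whether the mice were handled in batches is unknown. Reads were estimated from single-transcript genes of the mm9 annotation, in which 69.0 to 71.2% of values under 20 reads lay within 0.1 of a whole number. Members and lists were chosen with earlier results of these data known. Named are all 7 members, in each list the genes called, the 2 most abundant and the 2 with the largest difference, the 3 genes of 5 RPKM or more on average that are most like each member of such a level, and markers. Osm is in 2 lists, and Csf3r is a receptor and a neutrophil marker. Il6, Il10, Csf2, Csf3 and Ifng were added as examples. Some genes that this rule names, and the B cell count at an unadjusted p, are not reported here. Promoters are RefSeq's (a GRCm38 table), placed on mm9 by exact match. Python 3.11.15, pandas 2.3.3, scipy 1.17.1 and matplotlib 3.10.9 were used.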

Additional observations from a re-analysis of the deposited data

Results flagged for a closer look

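Socs1 had 29.8 RPKM and Socs2 99.6 RPKM in PBS replicate 6, far above the other 3 PBS libraries by Dixon's ratio (0.939 and 0.861, each past its 95% critical value for 4 libraries). Chance alone marks about 1 in 20 groups, and 5.33% of the 9594 genes tested were marked in the PBS group, 0.98% of the genes tested as a high value of PBS replicate 6. The reason for the high values was not tested.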

How the results depend on the processing

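Alternatives were quantile normalization, libraries centred on their median, limma without a trend, 0.1 as the pseudocount, every gene kept, only genes averaging 5 RPKM or more (which leaves out Socs5 and Socs7), and leaving out each library. Over these, the log2 differences of Cish, Socs1, Socs2, Socs3 and Pim1 kept their sign. With centring, 1 of the 7 genes was called, Cish (1.54), and 1 JAK kinase, Jak2. The difference of Socs7 turned from -0.14 to 0.022 with centring and 0.053 with quantile normalization, and that of Socs5 from 0.09 to -0.057 without PBS replicate 6. With 1 library left out, the differences ranged from 1.16 to 1.59 for Cish, from 1.25 to 1.83 for Socs1, from 1.56 to 2.46 for Socs2, from 0.02 to 0.46 for Socs3, from 0.27 to 0.73 for Pim1, from -0.06 to 0.20 for Socs5 and from -0.26 to -0.01 for Socs7. Over all alternatives the limma adjusted p ranged from 0.0320 to 0.209 for Cish, 0.0128 to 0.382 for Socs1 and 0.00610 to 0.403 for Socs2, the lowest without PBS replicate 6. The number of the 7 genes called ranged from 0 to 3, of JAK kinases from 0 to 1, of ligands from 0 to 2, and of other STAT-induced genes from 0 to 1, each highest without PBS replicate 6. Of the 2 ligands, Il4 passed the filter only through the MC-21 group. The count of all genes called was 60, ranged from 9 (without PBS replicate 8) to 102, and was 6 with every gene kept. It was 19, 35, 18 and 14 without MC-21 replicates 2, 3 and 4 and PBS replicate 7. Of the 60, 19 were higher, against 44 of 74 with centring and 26 of 55 with quantile normalization. The causes were not tested. No paired analysis was possible because the groups share no replicate number. The smallest exact p that 4 libraries against 3 allow is 0.0286, and with 3 or 4 libraries a p that misses the threshold does not show equal levels.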
